A study of Apis mellifera with 5 samples.

Results

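The unigenes described here are those whose best protein match carried a mitochondrial name in RNA from the hypopharyngeal glands (HGs) of worker honey bees. Members were the unigenes whose match in the deposited annotation held the word mitochondrial or named cytochrome c oxidase, NADH dehydrogenase or ATP synthase, and which had at least 10 unique reads summed over all libraries. The search found 161 unigenes, of which 113 reached this minimum and 48 did not, out of 20522 unigenes in all. The bees were full sisters of Apis mellifera carnica Pollmann, from a colony whose queen was inseminated with the sperm of a single drone, and HGs were taken at 5 ages after emergence, namely on day 3, day 6, day 9, day 12 and day 16. Each age was 1 library from a pool of 30 bees, and the labels name no treatment, so every difference compares libraries, with no replicate behind it. In such pools of whole glands, fewer cells of a type and less RNA per cell cannot be told apart.

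Mitochondria burn the products of sugars, fats and amino acids in the citric acid cycle and pass the electrons along the respiratory chain, whose proton gradient drives ATP synthase. Most mitochondrial proteins are coded in the nucleus, made in the cytosol and imported, while a few subunits of the respiratory chain are coded in the mitochondrial genome and made on mitochondrial ribosomes. The HGs of young workers secrete the proteins of royal jelly (RJ), and secretory cells spend much ATP on making and exporting protein.

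The annotation sets which mitochondrial unigenes can be seen. Its 7628 entries are exactly those with a read on day 3 and a value under 10 RPKM there. RPKM is the unique reads scaled by the length of the unigene and the total of the library. Every member was therefore low on day 3, between 0.456 and 9.98 RPKM, and abundant mitochondrial transcripts of the young gland are not among them. Unigenes without a read on day 3 are not among them either. With so few reads on day 3, a member could hardly be called lower at a later age, so the members are set beside the 2985 other unigenes that passed the same limit, carried a name and had at least 10 reads. The reads were matched to unigenes and have no genome position here.

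The 13 members with at least 100 reads were a small minority. The members had 6306 reads in all, with a median of 35 and a range of 10 to 471 per unigene over the 5 libraries, and 74 had under 50. Their median length was 1140 bases, close to the 1062 bases of the other named unigenes, and 106 of them (93.8%) were read at every age against 88.2% of the others. The unigenes BI503333, NP9549086 and TC19164 entered with exactly 10 reads, while 7 with 9 reads did not. Without the reads of day 3, 10 members would have missed the minimum, and without those of day 16 also 10.

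The names came mostly from other insects. The ant Camponotus floridanus gave the best match of 64 members and the ant Harpegnathos saltator that of 44. There were 102 distinct names, and 22 members shared a name with another member, 6 of them also the same matched protein, so a pair of unigenes can be pieces of 1 gene or related genes. The match of 3 members was found in the reference gene table of the bee. By it, NP391455 is ND3 and TC23725 is ND2, both coded in the mitochondrial genome, and TC21478 is Ndufs1, a nuclear-coded subunit of complex I. Of the 43 members with any cellular component term from Gene Ontology, 15 had a term naming the mitochondrion.

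The libraries held between 1208 and 1816 unique reads in units of 1000. Transcripts of secretory HGs were plentiful: TC24109, named major royal jelly protein 2 by the study, had 15939, 34027, 78400, 81166 and 37832 RPKM in the order of age. The unigenes TC22893 and TC12751, named major royal jelly proteins 3 and 4, had only 2 to 19 and 3 to 45 reads. Muscle markers were read at every age, all 12 of the list, with a summed 863, 2541, 2910, 6062 and 4908 RPKM, and 11 of them were called higher than day 3 on day 6 and all 12 at each later age. The 34 neuron markers summed to between 88.3 and 120 RPKM and the 7 fat body markers to between 5.00 and 11.1 RPKM. Muscle is rich in mitochondria, and its part in the values below was not tested.

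A unigene was called a DEG between libraries when the test of Audic and Claverie on its unique reads, adjusted over all unigenes, gave a false discovery rate (FDR) of at most 0.001 and the RPKM differed at least 2-fold. Of the 113 members, 109 were called in none of the 9 comparisons made. No share of other unigenes stands beside this count, so it is not read as a trait of the members. The 4 called were NP9552306, an aminotransferase of lysine and tryptophan breakdown, TC12774 and TC19313, enzymes of the citric acid cycle, and TC16437, an activator of fatty acids. Where the libraries were assumed to vary with a coefficient of variation of 0.2 beyond counting error, NP9552306 alone was called. Intervals below are 95% exact intervals of the reads and cover counting error only.

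NP9552306 had the largest ratios among the called members. It matched kynurenine/alpha-aminoadipate aminotransferase, which in mammals converts kynurenine to kynurenic acid and aminoadipate to oxoadipate. From day 3 to day 16 it had 5, 14, 97, 135 and 220 reads, or 2.56, 8.02, 69.9, 87.4 and 105 RPKM. The libraries of the youngest ages were low and those from day 9 on were high. Against day 3 its level was 27.3-fold higher on day 9 (95% interval 11.3 to 85.9), 34.1-fold on day 12 (14.3 to 107) and 41.1-fold on day 16 (17.4 to 128), each called. Against day 6 it was called higher at the same 3 ages, by 3.12, 3.45 and 3.72 on the log2 scale. The ratio of day 6 to day 3, 3.13-fold (1.07 to 11.1), was not called. From day 9 to day 12 and from day 12 to day 16 the log2 ratios were 0.32 (−0.06 to 0.71) and 0.27 (−0.04 to 0.59), so neither step exceeded counting error.

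Among the 162 named annotated unigenes called higher on day 16 than on day 3, NP9552306 stood at rank 14 by its ratio, and on day 9 at rank 5 of 66. It held 0.410% of the members' reads on day 3 and 13.3% on day 16. A second unigene of the same name, TC17889, which matched a different protein, had 14, 15, 14, 18 and 26 reads. Its log2 ratio of day 16 to day 3 was 0.80 (−0.19 to 1.85), within counting error.

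TC12774 matched the E1 component of 2-oxoglutarate dehydrogenase, which in the citric acid cycle turns 2-oxoglutarate into succinyl-CoA. It had 43, 64, 53, 47 and 123 reads, or 7.22, 12.0, 12.5, 9.97 and 19.3 RPKM. The day 16 library was the highest, and it was called higher than day 3 at 2.67-fold (1.88 to 3.88). The steps of days 6 and 9 above day 3, 0.73 (0.15 to 1.33) and 0.79 (0.19 to 1.41) on the log2 scale, passed counting error but not the call. Another unigene with this name, NP9553562, was thinly read, with 8, 7, 2, 2 and 1 reads, and lay lower on day 16 than on day 3 by its interval alone (log2 ratio −3.10, −8.57 to −0.20).

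TC19313 matched the flavoprotein subunit of succinate dehydrogenase, which oxidises succinate and feeds electrons into the respiratory chain as complex II. Its reads were 42, 48, 81, 41 and 44, or 7.78, 9.94, 21.1, 9.59 and 7.62 RPKM. Day 9 alone stood out: it was called higher than day 3, at 2.71-fold (1.85 to 4.04), and day 12 was called lower than day 9, with a log2 ratio of −1.14 (−1.72 to −0.58), a call lost under TMM scaling, another way of setting the libraries level. The other unigene of this name, TC20907, a fragment of 513 bases, had 2, 12, 6, 1 and 4 reads and was highest on day 6.

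TC16437 matched acyl-CoA synthetase family member 2, one of the enzymes that join fatty acids to coenzyme A. It had 32, 29, 33, 72 and 50 reads, or 8.24, 8.35, 11.9, 23.4 and 12.0 RPKM, and its highest library was day 12. Day 12 was called higher than day 3, at 2.84-fold (1.85 to 4.46), and than day 6, with a log2 ratio of 1.49 (0.85 to 2.16). The step down to day 16 had a log2 ratio of −0.96 (−1.51 to −0.42) and was not called.

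**Figure D1:**
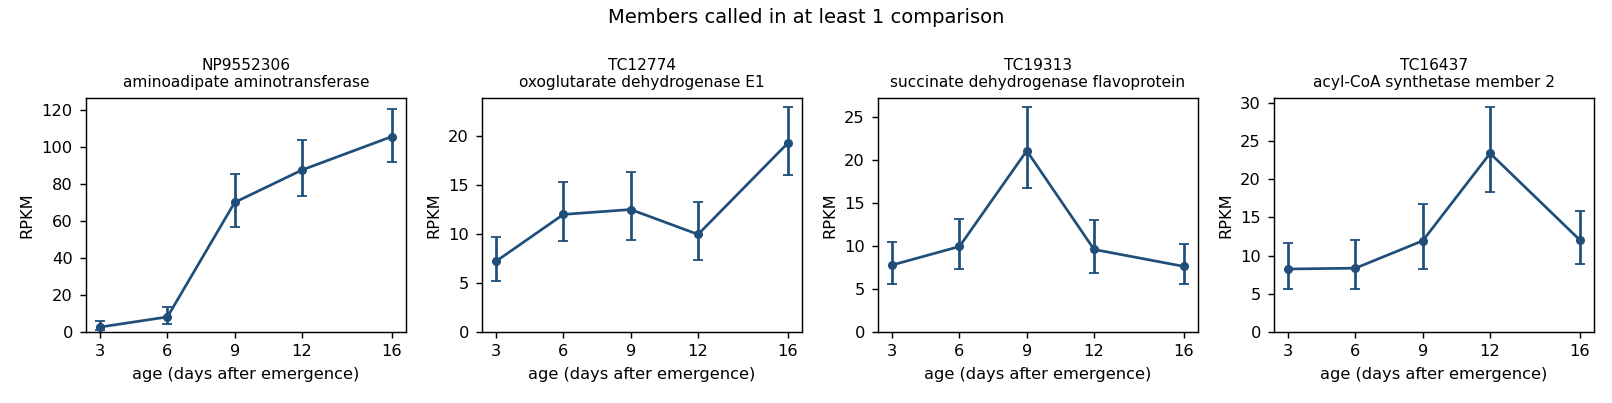
Level in RPKM (vertical axes, each from 0) at the 5 ages (horizontal axes, days after emergence) of the 4 members called in at least 1 comparison, with 1 library per age; bars are 95% exact Poisson intervals of the reads. NP9552306 went from 2.56 RPKM on day 3 to 105 on day 16, while the other 3 had their highest levels on days 16, 9 and 12.

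Few members were called in any comparison, and the shares of all unigenes and of the named annotated ones stand beside each count. On day 6 against day 3 no member was called in either direction, where 0.574% of all unigenes tested were called higher and 0.289% lower, and 0.775% and 0% of the named annotated unigenes. On day 9, 2 of 113 members (NP9552306 and TC19313) were called higher than day 3 and 0 lower, beside 1.27% and 6.31% of all unigenes and 2.13% and 0.194% of the named ones. Day 12 had 2 members (NP9552306 and TC16437) called higher than day 3 and 0 lower, beside 1.8% and 12.5% of all and 3.2% and 1.81% of the named ones. Day 16 had 2 (NP9552306 and TC12774) called higher than day 3 and 0 lower, beside 2.51% and 9.9% of all and 5.23% and 0.807% of the named ones. 

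Between the later ages the counts were as small, at most 2 members in a direction, and no reading about the list was taken from them. Day 9 had 1 member called higher than day 6 and 0 lower, against a background of 0.378% higher and 0.803% lower of all unigenes and 0.647% and 0.0647% of the named ones. Day 12 had 2 called higher than day 6 and 0 lower (1.19% and 6.41% of all, 1.75% and 0.744% of the named), and day 16 had 1 and 0 (1.92% and 3.67% of all, 3.62% and 0.129% of the named). Day 12 had 0 called higher and 1 lower than day 9 (0.788% and 1.44% of all, 1.17% and 0.227% of the named). Day 16 had none called in either direction against day 12 (2.33% and 0.748% of all, 1.29% and 0.194% of the named). Comparisons that share the day 3 or the day 6 library are not independent of each other.

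A looser count, of the members whose 95% interval of the ratio excluded equality, was made with no adjustment for the number of unigenes. Against day 3, day 6 had 5 members higher and 2 lower, beside 4.87% and 2.45% of the named annotated unigenes, and day 9 had 3 and 2, beside 5.75% and 5.13%. On day 12 it was 5 higher and 8 lower, beside 7.23% and 10.3%, and on day 16 it was 7 and 4, beside 10.5% and 6.39%. Against day 6, the library of day 9 had 3 higher and 3 lower (3.33% and 2.55%), that of day 12 had 8 and 7 (5.79% and 8.8%), and that of day 16 had 10 and 4 (8.69% and 5.46%). Day 12 had 6 higher and 3 lower than day 9 (4.09% and 5.17%), and day 16 had 3 higher (2.65%) and 5 lower (4.42%) than day 12, where the named annotated unigenes had 8.74% and 2.07%. In at least 1 of the comparisons this held for 45 members, and in none for 68. That count has no share of the named annotated unigenes beside it and is not read as a result about the members. Smaller differences were not detectable at this depth.

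The members' median stood furthest from that of the other named unigenes on day 12. Their median log2 ratio to day 3, taken of RPKM plus 0.1, was 0.16, −0.16, 0.24 and 0.03 on days 6, 9, 12 and 16, and that of the other named unigenes 0.01, −0.14, −0.28 and −0.09. All unigenes with at least 10 reads, which include the abundant ones, had medians of −0.20, −0.47, −0.65 and −0.50. The gap between the members and the other named unigenes was 0.15, −0.02, 0.52 and 0.12, and on day 12 it was 0.41 for unigenes with at least 50 reads and 0.49 without NP9552306. This gap does not depend on how the libraries are scaled, while the medians do: TMM scaling moved every ratio to day 3 up by 0.15, 0.40, 0.60 and 0.47, and the members' median on day 9 then read 0.23. The gap is a description of these libraries with no test, and the 95% interval of the members' median on day 12, taken over unigenes and not over samples, ran from −0.23 to 0.33. It was not common to all role groups described below. On day 12 the gap was 0.94 for the mitochondrial ribosome, 0.41 for metabolic enzymes and −0.03 for mitochondrial gene expression. Assembly factors had −0.45 and the 1 member of membrane dynamics −1.98, while the remaining groups lay above 0.

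**Figure D2:**
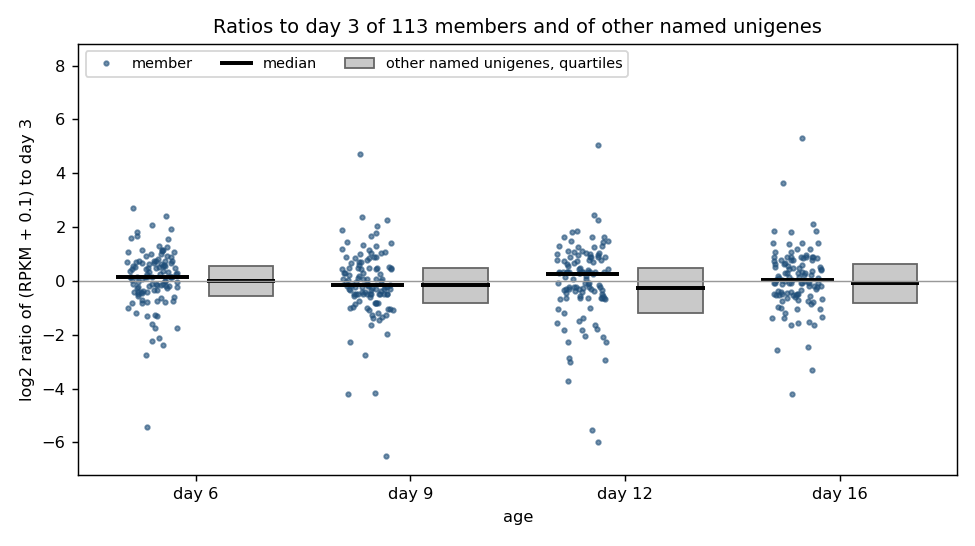
Log2 ratio to day 3 of (RPKM + 0.1) on the vertical axis at the later ages on the horizontal axis, with 1 blue point per member; the black lines are medians and the grey boxes span the quartiles of the 2985 other named unigenes. The medians differed most on day 12, at 0.24 for members and −0.28 for the others.

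The age at which each unigene was highest was read from the same values. Day 3 was the highest library of 14.2% of the members and day 12 of 25.7%, while the other named unigenes had 25.9% and 14.4%. On day 16 the shares were 22.1% and 22.0%. As lowest library, day 12 came up for 25.7% of the members and for 31.2% of the others, and day 9 for 25.7% and 19.2%.

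**Figure D3:**
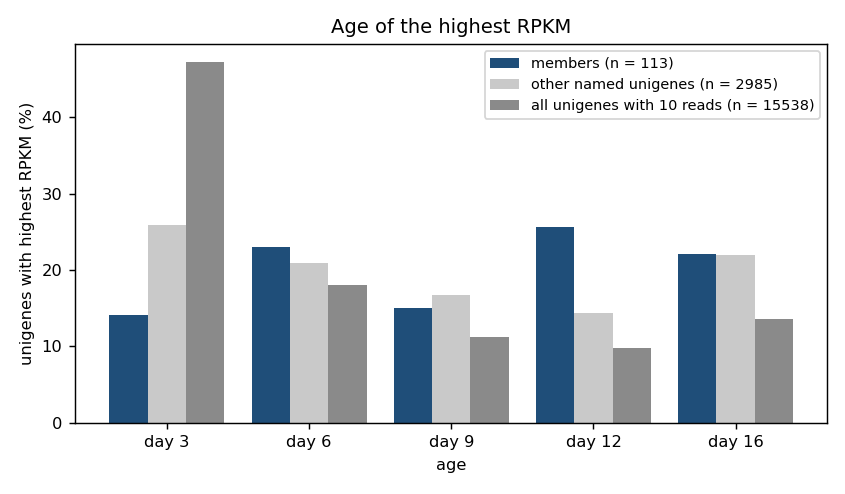
Share in percent (vertical axis, from 0) of unigenes whose highest RPKM fell on each age (horizontal axis), for 113 members, 2985 other named unigenes and 15538 unigenes with at least 10 reads. Day 3 held 14.2% of the members and 25.9% of the other named unigenes, and day 12 held 25.7% and 14.4%.

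The members were grouped by words in their names, and the reads of each group were summed and given as RPM, reads per 1000000 unique reads of the library. TMM scaling adds the shifts given above to their ratios as well, so a group with a ratio near 0 lies above day 3 under it. The summed reads of all members were 718, 803, 819, 911 and 912 RPM. Without NP9552306 they were 715, 793, 739, 810 and 790, which left a log2 ratio to day 3 of 0.18 (0.06 to 0.30) for day 12 and 0.14 (0.03 to 0.26) for day 16. The sums of the 2985 other named unigenes, measured in the same way, were 21872, 23367, 23561, 25785 and 38113 RPM, with log2 ratios to day 3 of 0.10, 0.11, 0.24 and 0.80. By sums, in which each unigene weighs by its reads, the members' ratio of 0.34 on day 16 was thus below that of the other named unigenes. By medians the gap on day 16 was 0.12, but −0.03 for unigenes with at least 50 reads.

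The respiratory chain and ATP synthase had 10 members. Their sum was 54.2, 65.2, 96.9, 66.2 and 54.0 RPM, highest on day 9 with a log2 ratio to day 3 of 0.84 (0.43 to 1.25). TC19313 carried that peak: without it the sum was 29.5, 33.6, 29.8, 35.7 and 29.7 and the ratio of day 9 was 0.02 (−0.64 to 0.66). TC15242, the lipid-binding subunit that forms the proton-driven ring of ATP synthase, had 13, 19, 8, 19 and 20 reads, and NP9545806, a core subunit of the cytochrome b-c1 complex (complex III), had 6, 3, 7, 10 and 13. Neither had a ratio to day 3 beyond counting error. The mitochondrially coded ND3 unigene had 6, 1, 4, 6 and 2 reads and that of ND2 had 7, 2, 2, 0 and 5. Such low counts for mitochondrial genes in libraries enriched for poly(A) are those of the matched unigenes alone. The ND2 unigene reached the minimum of 10 reads only through day 3, its highest library.

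The assembly factors were the pair NP9548197, which helps to build the F1 part of ATP synthase, with 11, 20, 7, 11 and 15 reads, and TC18721, the chaperone BCS1, which places the Rieske subunit into complex III, with 9, 10, 2, 2 and 6. Both were highest on day 6, and no ratio of either passed counting error.

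The 8 proteins of the mitochondrial ribosome summed to 38.9, 42.8, 45.5, 58.0 and 40.2 RPM. The sum was highest on day 12, with a log2 ratio of 0.58 (0.09 to 1.07) to day 3 and a fall to day 16 of −0.53 (−1.01 to −0.05). The sum of the other named unigenes had a ratio of 0.24 on day 12, within the interval of the ribosome. The ratio of day 12 was 0.64 (0.09 to 1.20) without TC14290, the most read of the group. TC23844, ribosomal protein L23, had 6, 6, 3, 15 and 11 reads and a log2 ratio of 1.66 (0.21 to 3.31) on day 12. TC14290 (S29) had 15, 20, 20, 15 and 16, TC18408 (L19) 14, 17, 9, 8 and 9, and TC16703 (S31) 8, 8, 7, 13 and 11, none with a ratio to day 3 beyond counting error. None of the 8 was called.

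Mitochondrial gene expression, with 21 members that include aminoacyl-tRNA synthetases and polymerases, was flat. Its sum was 158, 173, 149, 152 and 146 RPM and every ratio to day 3 lay within counting error, while under TMM scaling that of day 12 was 0.54. The words also placed the COQ5 methyltransferase and endonuclease G, among others, in this group. TC17598, isoleucyl-tRNA synthetase, which loads isoleucine onto its tRNA, had 41, 32, 23, 23 and 50 reads, and TC14507, arginyl-tRNA synthetase, had 34, 24, 17, 21 and 21. TC22750, seryl-tRNA synthetase, had 17, 18, 22, 21 and 10 and was lower on day 16 than on day 12 by its interval (log2 ratio −1.50, −2.75 to −0.35). TC21252, the GTPase GTPBP3, which modifies mitochondrial tRNAs, had 18, 25, 11, 24 and 26. The 9 aminoacyl-tRNA synthetases together had 90.1, 88.2, 91.9, 69.9 and 76.0 RPM. TC20618, the catalytic subunit of DNA polymerase gamma, which copies the mitochondrial genome, had 15, 10, 5, 3 and 5 reads. Day 12 lay below day 3 by its interval, with a log2 ratio of −1.98 (−4.41 to −0.16), as did day 16, with −1.68 (−3.50 to −0.15). It was not called, and was picked after its values were seen.

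The sum of the 7 members of import, chaperones and proteases was lowest on day 3, though 4 of the members had their lowest level at a later age. It was 20.6, 38.9, 31.5, 28.3 and 33.6 RPM, with log2 ratios to day 3 of 0.91 (0.29 to 1.56) for day 6 and 0.70 (0.08 to 1.35) for day 16. The sums of the other named unigenes had 0.10 and 0.80. TC17360, which inserts proteins into the inner membrane as OXA1, had 21, 28, 18, 22 and 42 reads, highest on day 16. Without it the sum of day 6 remained above that of day 3, at 1.31 (0.35 to 2.33), and that of day 16 did not, at 0.34 (−0.73 to 1.45). The others were thinly read: NP9550575, the chaperone Tim13 of the space between the membranes, had 2, 7, 7, 5 and 4 reads, DB754945, an inner membrane protease, 4, 8, 3, 2 and 3, and NP9549823, the 60 kDa heat shock protein, 3, 6, 5, 3 and 2.

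The 3 carriers summed to 14.1, 11.9, 9.11, 23.8 and 16.0 RPM, with no ratio to day 3 beyond counting error. NP9546760, the deoxynucleotide carrier, had 8, 4, 7, 14 and 7 reads, NP9552886, a carnitine carrier that brings fatty acids in, had 6, 12, 3, 12 and 11, and BI504521, the 2-oxoglutarate/malate carrier, had 10, 2, 1, 6 and 11. The only member of membrane dynamics, NP9549607, a dynamin-like GTPase, had 8, 12, 5, 1 and 6 reads.

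The 43 metabolic enzymes held the other 3 called members. Their sum was 332, 353, 390, 492 and 537 RPM, with log2 ratios to day 3 of 0.57 (0.40 to 0.73) for day 12 and 0.70 (0.54 to 0.85) for day 16. Without NP9552306 these became 0.25 (0.08 to 0.43) and 0.34 (0.18 to 0.50), beside the 0.24 and 0.80 of the other named unigenes. The sum of the others kept its own most read unigenes, so the pair is not matched. By medians, with NP9552306 kept, the metabolic enzymes stood above the other named unigenes by 0.41 on day 12 and 0.13 on day 16. TC21219, dihydroorotate dehydrogenase of pyrimidine synthesis, had 60, 32, 28, 54 and 47 reads, with the days 6 and 9 libraries lowest, and was lower on day 6 than on day 3 by its interval (log2 ratio −0.75, −1.41 to −0.10). The words also placed A kinase anchor protein 10, the kinase PINK1 and the dimethyladenosine transferases, which methylate ribosomal RNA, in this group.

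**Figure D4:**
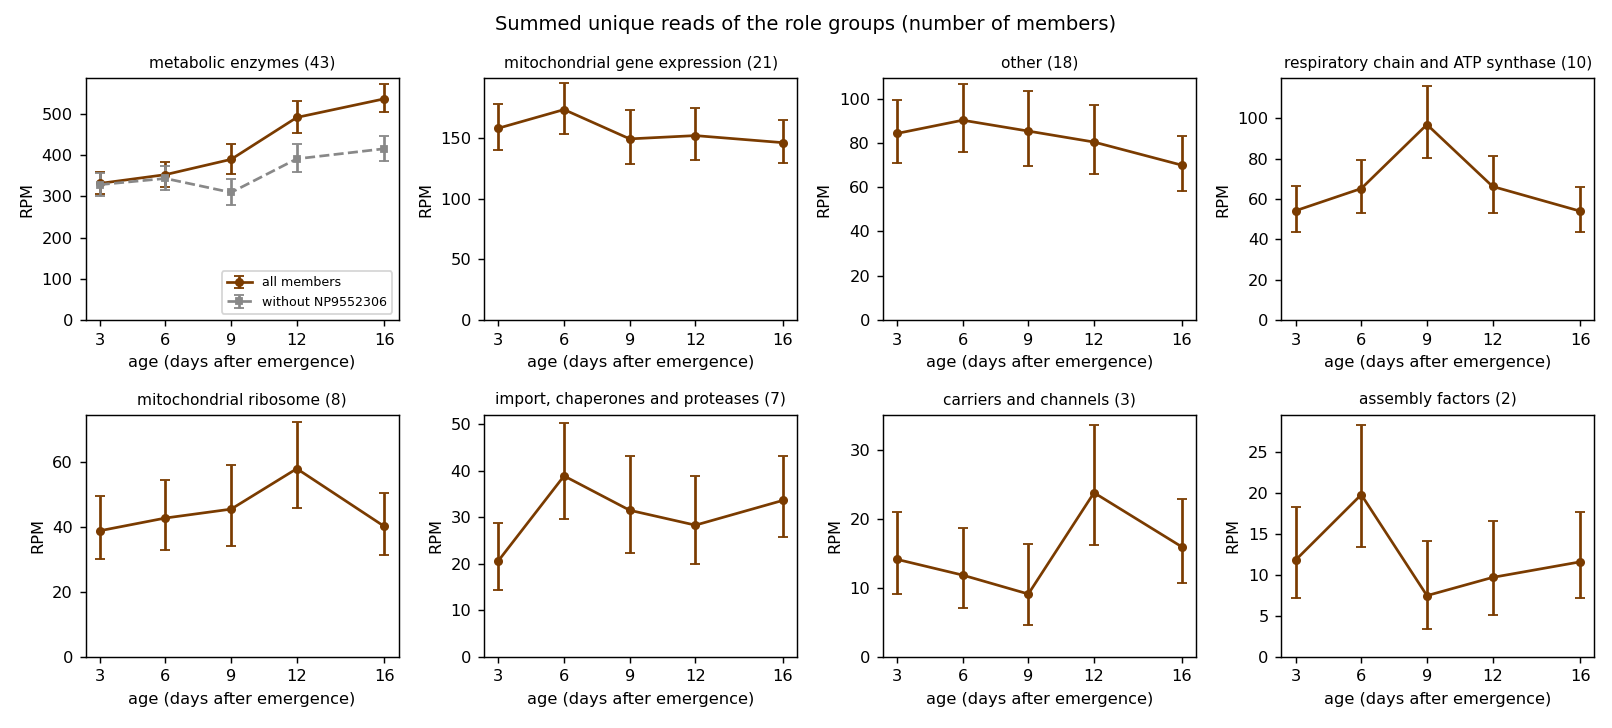
Summed unique reads in RPM (vertical axes, each from 0) of 8 role groups at the 5 ages (horizontal axes, days after emergence), with 1 library per age and 95% exact Poisson intervals; the number of members is in brackets. Metabolic enzymes had 332 RPM on day 3 and 537 on day 16, or 416 without NP9552306 (grey). Their log2 ratio was 0.70 or 0.34, beside 0.80 for the other named unigenes, whose own most read unigenes were kept. The day 9 value of 96.9 of the respiratory chain rests on TC19313.

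The members of several pathways were also gathered by known function, a choice made after their values were seen. The citric acid cycle and pyruvate dehydrogenase, 9 members, had 84.2, 116, 137, 106 and 133 RPM, above day 3 by 0.46 (0.13 to 0.79), 0.71 (0.38 to 1.04), 0.34 (−0.01 to 0.68) and 0.66 (0.35 to 0.96) on the log2 scale. The sums of the other named unigenes had 0.10, 0.11, 0.24 and 0.80. Without TC12774 the ratio of day 9 was 0.67 (0.27 to 1.07) and that of day 16 was 0.14 (−0.25 to 0.54). TC19313 had 42 reads on day 3 and 81 on day 9. No sum without it was taken, so the day 9 ratio is not read as a rise of the whole cycle. NP9552672, the alpha subunit of pyruvate dehydrogenase, which links glycolysis to the cycle, had 28, 23, 14, 33 and 47 reads.

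Lysine and tryptophan breakdown, 5 members, had 27.1, 29.6, 101, 133 and 160 RPM. Without NP9552306 the sum was 24.1, 20.4, 20.7, 32.7 and 39.1, highest on day 16. The members differed among themselves. NP9545622, alpha-aminoadipic semialdehyde synthase, which begins lysine breakdown, had 14, 9, 7, 22 and 35 reads, and its log2 ratio to day 3 was 1.23 (0.29 to 2.23) on day 16. TC21866, glutaryl-CoA dehydrogenase, which acts near the end of the same route, had 11, 4, 3, 1 and 1 reads and was highest on day 3. TC21959, a DHKTD1-like protein, whose mammalian relative acts between them on oxoadipate, had 2, 3, 1, 3 and 9. TC21866 reached the minimum of 10 reads only through day 3 and TC21959 only through day 16, the libraries in which they are high. Their difference and the sums above are thus in part set by the choice of members. NP9545622 was called higher on day 16 than on day 6 under TMM scaling (log2 ratio 2.02), and otherwise none of these was called.

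Threonine breakdown had a pair of members, which act in turn on the way from threonine to glycine. NP9553419, L-threonine 3-dehydrogenase, had 3, 1, 0, 2 and 12 reads, and NP9553075, 2-amino-3-ketobutyrate CoA ligase, had 1, 3, 3, 5 and 16. Both were highest on day 16, but NP9553419 reached the minimum of 10 reads only through that library, so no ratio of their sum is given. NP9553075 was called higher on day 16 than on day 3 under TMM scaling (log2 ratio 4.37) and not without it.

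**Figure D5:**
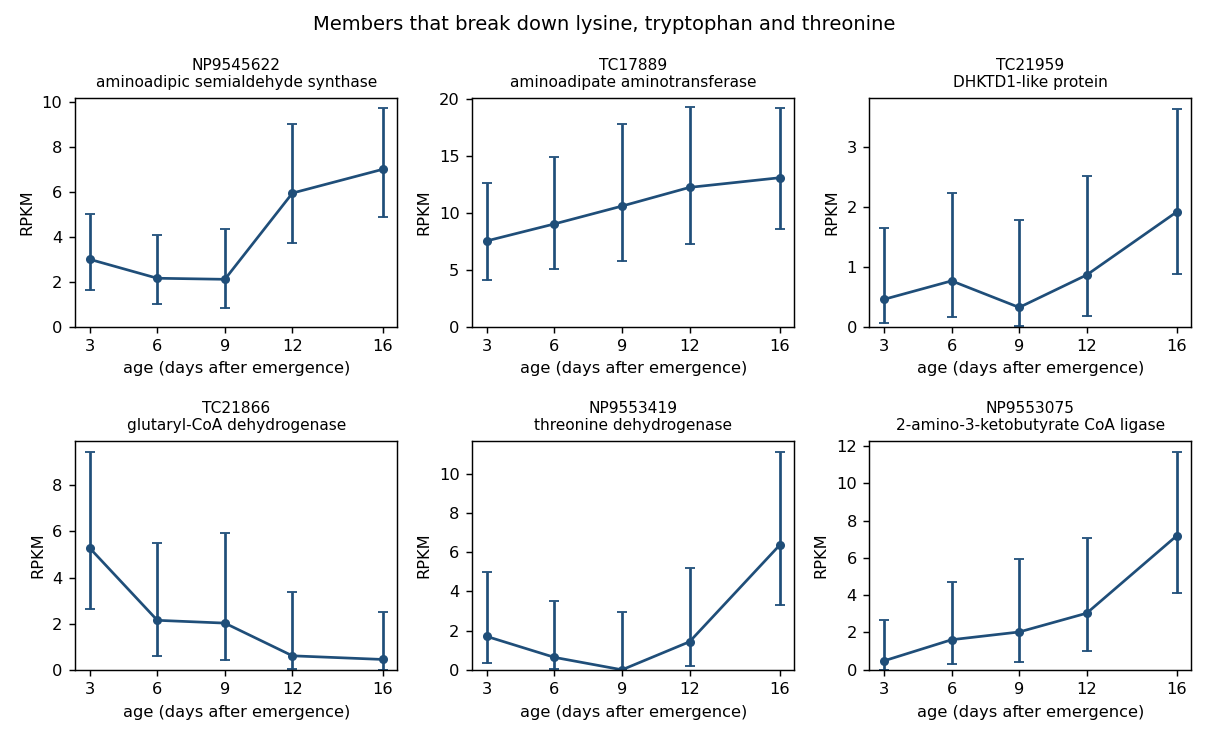
Level in RPKM (vertical axes, each from 0) at the 5 ages (horizontal axes, days after emergence) of 6 members of lysine, tryptophan and threonine breakdown, with 1 library per age and 95% exact Poisson intervals. Both threonine enzymes and NP9545622 were highest on day 16, whereas TC21866 had 5.28 RPKM on day 3 and 0.449 on day 16. NP9553419 and TC21959 reached the minimum of reads only through day 16 and TC21866 only through day 3, so their patterns are in part set by the choice of members.

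Fatty acid oxidation and activation, 7 members, had 54.2, 67.2, 55.5, 88.5 and 66.1 RPM. The log2 ratio of day 12 to day 3 was 0.71 (0.30 to 1.12), and −0.02 (−0.60 to 0.56) without TC16437. Breakdown of branched-chain amino acids, 8 members, had 66.6, 74.4, 57.1, 78.1 and 71.6, with no ratio to day 3 beyond counting error. Of these, TC15236, the acyltransferase core of the branched-chain ketoacid complex, had 12, 18, 13, 26 and 20 reads and a log2 ratio to day 3 of 1.45 (0.41 to 2.57) on day 12, which was called under TMM scaling alone.

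The remaining 18 members fell in no role group and summed to 84.2, 90.2, 85.3, 80.3 and 70.0 RPM. TC15410, like frataxin, which serves the making of iron-sulfur clusters, had 12, 14, 5, 12 and 14 reads. NP9548937, an MMP37-like protein, had 19, 10, 13, 16 and 14, and TC17247, like PTCD3, a protein tied to the mitochondrial ribosome, had 13, 10, 9, 14 and 7. NP9549280, named mitochondrial enolase superfamily member 1, had 22, 12, 8, 2 and 8 reads, with a log2 ratio of −3.12 (−6.26 to −1.10) for day 12 against day 3, and was not called.

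Other genes of the pathway, 8 named unigenes found by their enzyme names, were called in none of the comparisons, and no interval of theirs excluded equality. Their words also took in proteins from outside mitochondria, such as ATP-citrate synthase and dynamin-binding protein. Among them NP9552803, like citrate synthase, which opens the citric acid cycle, had 34, 18, 23, 17 and 25 reads. TC16364, a putative malate dehydrogenase whose name gives no compartment, had 13, 12, 14, 20 and 23. TC13727, prohibitin-2, an inner membrane scaffold, had 16, 16, 14, 12 and 12.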

How the data were processed

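RNA of HGs pooled from 30 bees was sequenced at each age. Per the study's methods, the authors cleaned the reads and mapped them with SOAP2, allowing 2 mismatches, to the unigenes of a honey bee gene index; its version was not stated there. Deposited by the authors were, for each unigene, a count of uniquely matching reads and the RPKM made from this count, the length and the library's unique reads. Reads that match several unigenes are not in that count, so near-identical copies are uncertain, and no use of strand is stated. The deposited names are best protein matches. Other deposited columns were not used.

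The members, role groups and lists were chosen with earlier results of these data known, and the functional pathways after their values were seen. Named members were the 4 most read of each role group and the called ones; any other was picked after its values were seen. Audic and Claverie's test (two-sided) ran on the counts over all unigenes with a read in either library, with Benjamini-Hochberg adjustment. It compares libraries, not ages. Intervals are Clopper-Pearson for ratios and exact Poisson for levels, at 95%. They do not cover PCR copies or differences between bees. In the ratio of a unigene, a count of 0 was set to a floor of 3 reads. Medians used RPKM plus a pseudocount of 0.1. TMM and an exact test with an assumed coefficient of variation of 0.2 came from edgeR 4.0.16 in R 4.3.3; the rest used Python 3.11.15 with SciPy 1.17.1. The test was tried on simulated data.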

Additional observations from a re-analysis of the deposited data

How the results depend on the processing

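No paired analysis was possible because each age had 1 library, and for the same reason no library could be left out. With an assumed coefficient of variation of 0.2 between libraries, 1 member, NP9552306, was called higher on day 9, day 12 and day 16, each against day 3 and against day 6. No member was then called lower on day 12 against day 9. The calls of TC19313 on day 9 (log2 ratio 1.44), TC12774 on day 16 (1.42) and TC16437 on day 12 (1.51) against day 3 were lost under it. So was the call of TC16437 on day 12 against day 6.

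Under TMM scaling 2 members were called higher on day 9 and 3 on day 16 against day 6, 0 were called lower on day 12 against day 9, and 1 (TC16437) was called lower on day 16 against day 12. Day 12 and day 16 against day 3, and day 12 against day 6, each had 3 called higher under it and 2 without it. The members' medians became 0.23 (day 9), 0.84 (day 12) and 0.49 (day 16) against day 3 and, against day 6, 0.10 (day 9) and 0.30 (day 12), since TMM moves every ratio of a comparison alike. In all, 8 members were called in at least 1 comparison under TMM against 4 without it, those gained being NP9545622, NP9553075, TC15236 and TC21219. No count of calls in this paragraph has a share of other unigenes beside it.

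A minimum of 50 reads or none above 1, or a pseudocount of 1, left the counts within 1.5 times and the medians within their intervals. Some signs changed inside those intervals: with none above 1, the members' medians to day 3 read −0.14 on day 12 and −0.09 on day 16. The gap to the other named unigenes then read 0.47 and 0.07. Leaving out the most read member, an alternative chosen after seeing the data, also moved the carriers on day 6 to −1.42 (without NP9552886) and the metabolic enzymes on day 9 to −0.09 and lysine and tryptophan breakdown to −0.22 on day 9, 0.44 on day 12 and 0.70 on day 16 (both without NP9552306); the other sums it moved stand beside their groups.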
